A study of Mus musculus with 5 samples.

Results

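The expression of 9 genes that mark the intestinal epithelium was followed in 3 tumours and 2 normal pancreas samples of the mouse: Gucy2c, Guca2a, Cdx1, Cdx2, Vil1, Cdh17, Fabp1, Lgals4 and Isx. They are 9 of the 55573 genes measured, and were picked by name with earlier results of these same samples known, so their tumour and normal values are given as a description, without p-values. In the tumours, Gucy2c stood at 11.6 to 23.7 TPM, and Vil1, Cdx2, Lgals4 and, at trace level, Cdh17 were also detected in all 3. Guca2a, Cdx1, Fabp1 and Isx had no count in any tumour. TPM is a level corrected for gene length, scaled to the same sum in every library, and can be compared between genes.

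RNA sequencing was run on tumours of Th-Cre:MYC mice and on pancreas of wild-type littermates, to compare their gene expression. The tumour mice came from crossing TH-Cre mice with CAG-STOP flox/flox-MYC mice, so that MYC is switched on wherever Cre has been made from the tyrosine hydroxylase promoter, in any tissue. The normal pancreas was perfused with RNAlater before it was taken out, which is not stated for the tumours. The submitters describe pancreas tumours, in a study titled as a neuroblastoma model, and followed them by ultrasound. Age, sex and strain background are not given for the animals in the sources used here. Tumours 1 and 2 carry 86 in their titles and tumour 3 carries 114, and whether tumours 1 and 2 grew in 1 animal is not stated. The p-values given for other genes reflect only how far these samples spread, which may be technical.

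Library totals ran from 6611967 to 15074489 estimated counts in the tumours and from 48848987 to 51669489 in the normal pancreas. The names of the tumour and of the normal libraries begin with numbers from separate ranges, whose meaning is not stated. Any difference in library handling cannot be told apart from tumour against normal. The labelled tissues were checked against marker genes. All 10 acinar enzyme genes listed were lower in tumour (4 of 10 passed without tumour 1), with a median log2 difference of -12.46 (-17.30 without tumour 3). They summed to 445361 and 439949.6 TPM in the normal libraries against 32.7 to 926 TPM in the tumours. All 7 neuroendocrine genes listed were higher, with a median of 8.22, and summed to 604 to 1298 TPM in the tumours against 1.47 and 1.59 TPM. Of 6 sympathoadrenal genes, 1 of 2 tested was higher (Th, 0 TPM in both normal libraries and 6.19, 3.07 and 0.49 TPM in tumours 1, 2 and 3), with a list median of 5.49 (3.47 with bounds), and Dbh, which makes noradrenaline in such cells, had no count anywhere. CPM below are counts divided by a library total that edgeR rescales by the trimmed mean of M-values (TMM), with factors of 0.271 and 0.263 for the normal libraries and 2.19 to 2.57 for the tumours. In bulk RNA, fewer cells of a type and less RNA per cell cannot be told apart.

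The genes cover 3 layers of intestinal biology. Gucy2c encodes guanylate cyclase C, the receptor on the luminal face of enterocytes that makes cyclic GMP when it binds guanylin, the product of Guca2a, or uroguanylin, the product of Guca2b; cyclic GMP then acts through cyclic GMP-dependent protein kinases on the chloride channel Cftr and on sodium uptake. Cdx1 and Cdx2 encode the caudal homeobox factors that set and keep intestinal fate, and Isx encodes an intestine-specific homeobox factor that lowers vitamin A conversion. Vil1 (villin, the actin bundler of microvilli), Cdh17 (liver-intestine cadherin), Fabp1 (a fatty acid carrier of liver and gut) and Lgals4 (galectin-4, a sugar-binding protein of apical rafts) belong to the mature absorptive cell.

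Promoter sequences of a few members are shown because detected and undetected members can be compared at the bases before their starts, where gut factors are known to bind. The RefSeq promoter table (GRCm38.p6) held 6 of the 9 genes. The 250 bases before each start were searched on both strands for 3 short motifs, and matches are in capitals. These were TTTATNG, known for CDX factors, AGATAA, known for GATA factors, and CAAAGTC, part of the HNF4 site. Each sequence is given 5′ to 3′ on the gene's strand and ends before the RefSeq and GENCODE starts. The first pair was detected in every tumour and the second pair in none.
Cdx2, chr5:147307271-147307499, minus strand: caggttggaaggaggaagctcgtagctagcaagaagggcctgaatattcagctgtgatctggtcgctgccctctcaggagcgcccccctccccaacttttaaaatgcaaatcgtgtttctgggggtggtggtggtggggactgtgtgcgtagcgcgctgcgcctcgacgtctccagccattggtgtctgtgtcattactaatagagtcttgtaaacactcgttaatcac
Vil1, chr1:74409134-74409375, plus strand: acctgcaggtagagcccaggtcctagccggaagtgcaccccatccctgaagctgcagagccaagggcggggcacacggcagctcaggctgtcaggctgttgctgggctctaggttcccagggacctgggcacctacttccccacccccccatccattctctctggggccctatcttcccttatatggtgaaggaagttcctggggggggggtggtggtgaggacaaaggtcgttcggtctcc
Fabp1, chr6:71199629-71199826, plus strand: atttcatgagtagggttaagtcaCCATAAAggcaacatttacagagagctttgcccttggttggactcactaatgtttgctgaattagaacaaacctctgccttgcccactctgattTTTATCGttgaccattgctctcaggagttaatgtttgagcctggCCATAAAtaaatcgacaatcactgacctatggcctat
Guca2a, chr4:119637482-119637703, plus strand: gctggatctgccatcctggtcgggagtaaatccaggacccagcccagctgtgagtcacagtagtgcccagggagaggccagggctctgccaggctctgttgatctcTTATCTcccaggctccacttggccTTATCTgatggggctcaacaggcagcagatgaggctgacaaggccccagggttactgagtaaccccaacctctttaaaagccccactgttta

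Fabp1, with no tumour count, held 3 CDX motifs, at 37 to 31, 81 to 75 and 175 to 169 bases before its GENCODE start, the base that follows the printed sequence. Guca2a, also without tumour counts, held 2 GATA motifs, at 92 to 87 and 116 to 111 bases before its start, counted the same way. Cdx2, Vil1, Lgals4 and Isx held none of the 3 motifs in this window. Among all 32851 promoters of the table, 9.81% held the CDX motif, 9.99% the GATA motif and 3.84% the HNF4 motif. The matches are letters in a window and describe no binding.

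**Figure D1:**
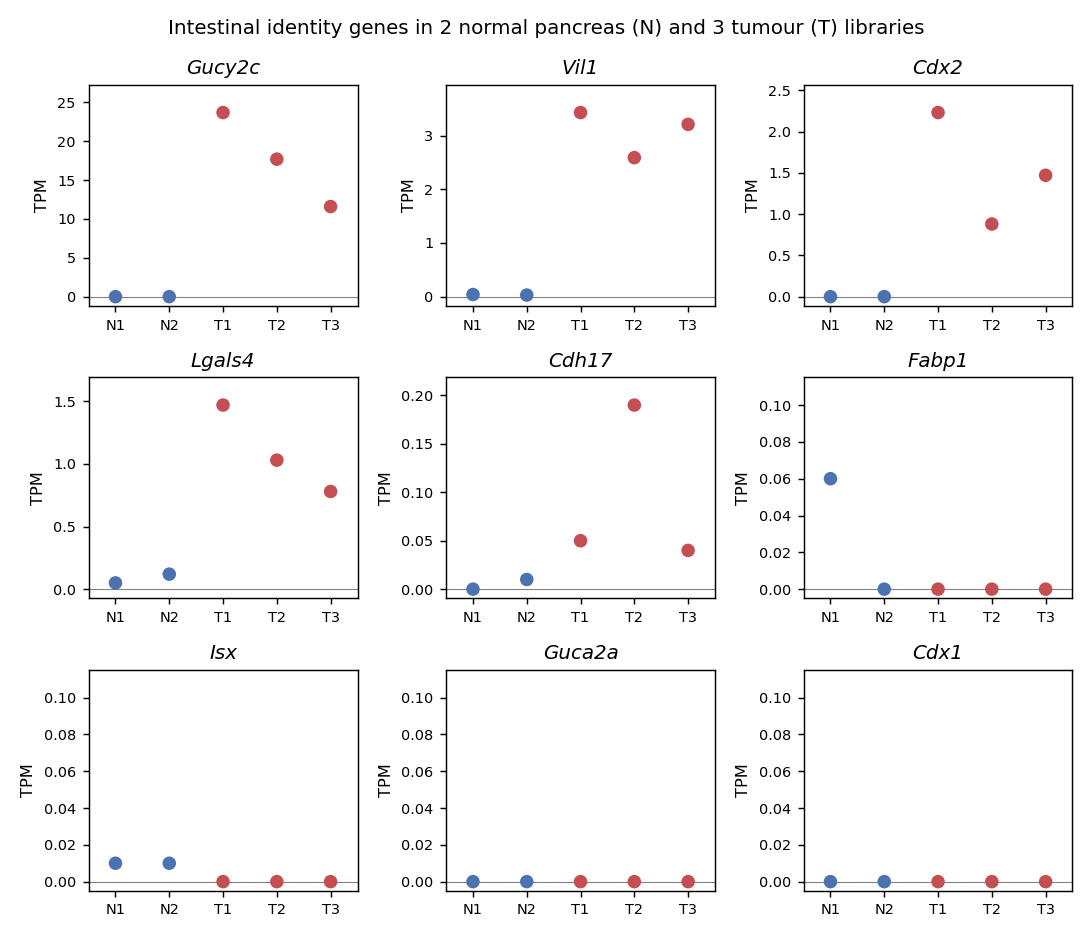
TPM of each of the 9 genes (vertical axis, linear, its own scale in each panel) in 2 normal pancreas libraries (N1, N2, blue) and 3 tumour libraries (T1 to T3, red), 1 point per library. Gucy2c reaches 23.7 TPM and Vil1 3.43 TPM in tumour 1, while Fabp1, Isx, Guca2a and Cdx1 lie at 0 in all 3 tumours.

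Gucy2c (ENSMUSG00000042638.14, chr6:136697284-136781765, minus strand, GRCm38) was by far the most abundant of the 9 in every tumour. Its estimated counts were 0 and 0 in normal 1 and 2 and 3760, 2565 and 903 in tumours 1, 2 and 3. The corresponding levels were 0 and 0 CPM against 99.9, 79.4 and 62.5 CPM. In TPM the tumours were at 23.7, 17.7 and 11.6 (17.7 ± 6.03, SD, n = 3). The tumour and normal libraries did not overlap, and tumour 3 was the lowest on both scales. With a floor of 3 counts over the normal libraries together, Gucy2c was at least 766-fold higher in tumour. The bound was 388-fold without normal 1 and 378-fold without normal 2, since the floor then rests on 1 library, and 663-fold to 808-fold when a tumour was left out. Among protein-coding genes above 0, 95.5%, 93.7% and 90.7% lay below Gucy2c in TPM in tumours 1, 2 and 3.

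No count of its ligand guanylin was found in the same libraries. Guca2a (ENSMUSG00000023247.2, chr4:119637704-119639471, plus strand) had 0 counts in all 5 libraries. In tumours 1, 2 and 3, 3 counts of this short gene would be worth 0.175, 0.192 and 0.352 TPM, and the Gucy2c level was 135, 92.1 and 32.9 times that value. Such floors, like the count intervals below, cover counting error only. The other natural ligand gene, Guca2b, had 3 counts in tumour 2 and none elsewhere. Neither ligand can be given a fold.

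The other genes of the pathway were taken from a list of 12. Of 7 tested, 4 were higher in tumour, 2 were lower and 1 did not pass (edgeR, adjusted p under 0.05), with a median log2 difference of 1.92 beside 0.38 over all 16810 genes tested. Both cyclic GMP-dependent kinase genes rose. Prkg2, the kinase of the intestinal brush border, went from 0.01 and 0 TPM to 0.64, 0.72 and 0.33 TPM, a ratio of pooled scaled counts of 92.1 (95% interval 16.4 to 3652; edgeR adjusted p = 0.000715). That ratio rests on 1 normal count, and the fitted log2 difference of 6.25 came to 9.32 without normal 1 and 5.35 without normal 2. Prkg1, the kinase of smooth muscle and neurons, went from 0.03 and 0.02 TPM to 0.51, 0.63 and 0.34 TPM (edgeR adjusted p = 0.00399, log2 difference 2.38, SE 0.45). The groups did not overlap for either kinase.

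Genes that remove cyclic GMP also rose. Pde5a, a phosphodiesterase that breaks it down, differed by 1.89 on the log2 scale (edgeR adjusted p = 0.00726, SE 0.42), and by 2.55 without normal 2. Abcc4, a pump that exports cyclic nucleotides, differed by 2.89 (edgeR adjusted p = 0.000242, SE 0.28), with 0.1 and 0.15 TPM in normal pancreas and 2.94, 3.60 and 1.91 TPM in the tumours. At the ion transport end the values were lower or uneven. Slc26a6, an anion exchanger of duct and gut, fell by 3.58 log2 units (edgeR adjusted p = 0.000687, SE 0.45), and with scaling by total counts only its value of -0.42 no longer passed. Slc9a3r1, a scaffold that tethers Cftr and the sodium exchanger, fell by 2.90 (edgeR adjusted p = 0.000671, SE 0.36) but came to 0.28 on the other side of 0 with scaling by total counts only.

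Cftr, the chloride channel downstream of Gucy2c, varied widely between tumours. It had 7 and 12 counts in the normal libraries and 232, 2 and 25 in tumours 1, 2 and 3, so tumour 2 lay below both normal libraries and the other tumours above. The difference did not pass (edgeR adjusted p = 0.279, log2 difference 1.92, SE 1.46), and it passed without tumour 2 (edgeR adjusted p = 0.0214, log2 difference 2.52) and with tumours 1 and 2 summed as 1 sample (edgeR adjusted p = 0.0139, log2 difference 1.89). Slc9a3, the sodium exchanger that guanylin is known to inhibit, had 2 counts in tumour 2 and none elsewhere, and Slc26a3, the chloride exchanger of the colon, had 1 in tumour 1 and 1 in tumour 2. Pdzk1 and Cnga3 had no count anywhere.

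**Figure D2:**
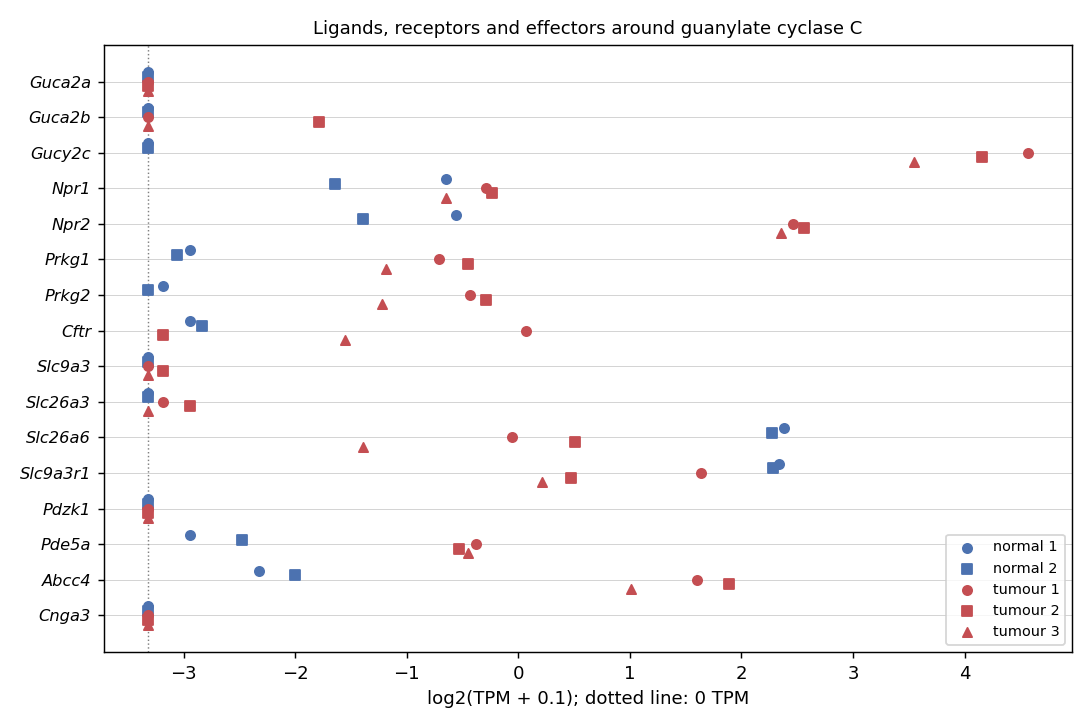
Levels as log2(TPM + 0.1) (horizontal axis) of the ligands, of Gucy2c with the natriuretic peptide receptors Npr1 and Npr2, and of effectors of cyclic GMP signalling, 1 symbol per library (blue, normal pancreas; red, tumour; the dotted line marks 0 TPM). Gucy2c lies furthest right in all 3 tumours and at 0 in both normal libraries, while Guca2a is at 0 in all 5.

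Gucy2c belongs to a family of membrane receptors that are themselves guanylate cyclases, of which 6 others were listed. Of 3 tested, 2 were higher, none was lower and 1 did not pass, with a median log2 difference of 2.84 (2.38 with a gene at 0 in normal pancreas set to its bound). Npr2, the receptor of C-type natriuretic peptide, stood at 0.58 and 0.28 TPM in normal pancreas and 5.41, 5.81 and 5.01 TPM in the tumours (edgeR adjusted p = 7.28e-05, log2 difference 2.84, SE 0.19). Npr1, the receptor of atrial natriuretic peptide, did not pass (edgeR adjusted p = 0.0649, log2 difference -0.96, SE 0.39) and changed sign with scaling by total counts only (2.22) and with limma on log2(TPM + 1) and log2(TPM + 0.1) (0.28 and 0.76), while without normal 2 it was lower (-1.43, adjusted p = 0.0189, edgeR). Gucy2g, an olfactory and testis form, had 5, 21 and 23 tumour counts and none in normal pancreas, a level at least 5.19-fold higher by counts (adjusted p = 0.0437, edgeR). That call was lost without normal 1 (adjusted p = 0.117), without normal 2 (adjusted p = 0.119), without tumour 2 (adjusted p = 0.0732) and without tumour 3 (adjusted p = 0.0648).

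The 5 genes whose pattern over the 5 libraries was nearest to Gucy2c were Dpp6, Kcnq1ot1, Rian, Celsr3 and Rgs4, ranked by Euclidean distance in centred log2(CPM + 0.5) among 16809 other genes tested. Their distances were 0.195, 0.288, 0.36, 0.406 and 0.449 log2 units. Dpp6, the nearest, had 105, 81.9 and 73.8 CPM in the tumours and 0 in both normal libraries. Dpp6 encodes a partner of neuronal potassium channels, Celsr3 a cadherin of axon guidance, Rgs4 a regulator of G proteins, and Kcnq1ot1 and Rian are imprinted long non-coding RNAs. The other tested members were far behind, with Vil1 at 3.94 (order 520), Cdx2 at 4.73 (order 855) and Lgals4 at 6.90 (order 4679). The distance takes in the size of the tumour to normal difference as well as its shape.

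Of the caudal factors, Cdx2 alone was detected. Cdx2 (ENSMUSG00000029646.3, chr5:147300805-147307270, minus strand) had 0 counts in both normal libraries and 195, 70 and 63 in tumours 1, 2 and 3. These are 5.18, 2.17 and 4.36 CPM and 2.23, 0.88 and 1.47 TPM (1.53 ± 0.677, SD, n = 3). The groups did not overlap, and tumour 2 was the lowest. Cdx2 was at least 34.7-fold higher, and at least 17.6-fold without normal 1, 17.1-fold without normal 2 and 25.4-fold to 44.3-fold without 1 tumour. In TPM it was a modest gene, above 48.9%, 31.6% and 43.0% of the protein-coding genes detected in tumours 1, 2 and 3. Its level was lower than that of Gucy2c by 10.6, 20.1 and 7.90 times.

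Cdx1 (ENSMUSG00000024619.8, chr18:61018862-61036199, minus strand) had 0 counts in all 5 libraries, where 3 counts would be worth 0.0456, 0.0499 and 0.0928 TPM in tumours 1, 2 and 3. Cdx4, the remaining caudal gene, also had none. Isx (ENSMUSG00000031621.9, chr8:74873173-74893506, plus strand) had 1 count in each normal library and 0 in the tumours, where 3 counts are worth 0.0583, 0.0638 and 0.119 TPM. No fold can be given for these genes. Expression below these floors was not detectable at this depth.

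Among the other gut transcription factors, more were lower than higher on the TMM scale. Of 21 listed, 18 were tested, 3 were higher, 9 were lower and 6 did not pass, with a median log2 difference of -1.19; with scaling by total counts only, 10 were higher and 2 lower, and 4 of the 9 had positive values. Without normal 1 or normal 2 the number of higher genes was 1. Pdx1, the factor of pancreas and duodenum, was the most abundant of the 3 higher genes at 18.0, 4.59 and 12.4 TPM against 1.23 and 1.54 TPM (edgeR adjusted p = 0.0365, log2 difference 1.63, SE 0.55). Its call was lost without normal 1 (adjusted p = 0.180), normal 2 (adjusted p = 0.118), tumour 1 (adjusted p = 0.0687) or tumour 3 (adjusted p = 0.0805). Hnf4g, the enterocyte paralogue of Hnf4a, rose by 2.33 (edgeR adjusted p = 0.00963, SE 0.55), with an adjusted p of 0.0752 without normal 1. Vdr, the vitamin D receptor, rose by 4.18 (edgeR adjusted p = 0.00581, SE 0.87), with an adjusted p of 0.0507 without normal 2, and its value was 5.18 without normal 1 and 3.44 without tumour 3.

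Among the factors that were lower, Gata4, which keeps proximal intestinal identity, had 958 and 1083 counts in normal pancreas and 0, 0 and 3 in the tumours. Its pooled scaled counts were 2141 times lower in tumour (95% interval 732 to 10391, edgeR adjusted p = 4.60e-05), and the fitted log2 difference of -10.81 came to -13.82 without tumour 3. Sox9, a factor of ducts and crypts, fell by 5.76 log2 units (edgeR adjusted p = 0.000191, SE 0.52), with -6.36 without tumour 1. Both stayed below 0 with scaling by total counts only. Hnf4a was level on the TMM scale (edgeR adjusted p = 0.959, log2 difference 0.01, SE 0.15). Its TPM was 11.2, 8.27 and 6.19 in the tumours against 2.28 and 2.82. TPM carries no TMM factor, and with scaling by total counts only the difference was 3.19. What sets these scales apart for Hnf4a was not tested. On log2(TPM + 1), limma gave Hnf4a a difference of 1.40 (adjusted p = 0.00478). Gata6 did not pass (edgeR adjusted p = 0.0705, log2 difference -1.75, SE 0.73) and spread from 0.34 TPM in tumour 2 to 3.91 TPM in tumour 1. It was lower without tumour 1 (-2.81, adjusted p = 0.00467, edgeR), without tumour 2 (-1.24, adjusted p = 0.0259, edgeR) and with tumours 1 and 2 summed (-1.73, adjusted p = 0.000243, edgeR), and came to 1.43 with total counts only.

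Vil1 (ENSMUSG00000026175.12, chr1:74409376-74435559, plus strand) varied least between tumours in TPM among the detected members. It had 2 and 4 counts in the normal libraries and 382, 227 and 178 in tumours 1, 2 and 3. In CPM this is 0.151 and 0.295 against 10.2, 7.03 and 12.3. In TPM it is 0.04 and 0.03 against 3.43, 2.59 and 3.21 (3.08 ± 0.436, SD, n = 3). The groups did not overlap, and the highest tumour was 1.32 times the lowest in TPM and 1.75 times in CPM. The pooled ratio was 41.7 (95% interval 19.1 to 114), with 31.7 without normal 1 and 61.7 without normal 2. The fitted log2 difference was 5.42 (SE 0.46). Vil1 shares 49 exon bases with Usp37 on the opposite strand, which had 39 and 44 normal counts and 552, 352 and 208 tumour counts, and no source used here says whether the counting used strand.

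Lgals4 (ENSMUSG00000053964.17, chr7:28833854-28841708, plus strand) had the smallest difference of the 4 members that passed the low-count filter. It had 2 and 4 counts in the normal libraries and 55, 36 and 7 in tumours 1, 2 and 3. Its levels were 0.151 and 0.295 CPM against 1.46, 1.11 and 0.485 CPM, and 0.05 and 0.12 TPM against 1.47, 1.03 and 0.78 TPM (1.09 ± 0.349, SD, n = 3). All tumours lay above both normal libraries, tumour 3 with the smallest margin. The pooled ratio was 5.19 (95% interval 2.30 to 14.5), with 3.94 without normal 1 and 7.68 without normal 2, and the fitted log2 difference was 2.20 (SE 0.71). Tumours differed by 3.02 times in CPM but 1.88 times in TPM. The scales differ in library scaling and in the use of effective length, which was 886, 910.1 and 436 bases in tumours 1, 2 and 3. The near-identical copy Lgals6 had no row among the genes measured, so how any reads from it were counted is not known.

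Cdh17 (ENSMUSG00000028217.11, chr4:11758147-11817895, plus strand) was at trace level. It had 0 and 1 counts in the normal libraries and 7, 24 and 3 in tumours 1, 2 and 3, or 0.05, 0.19 and 0.04 TPM (0.0933 ± 0.0839, SD, n = 3) against 0 and 0.01 TPM. Tumour 2 held most of the counts. The pooled ratio was 10.8 (95% interval 1.81 to 439), and 5.15 (0.732 to 223) without tumour 2, where the interval reaches below 1. Without normal 1 it was 5.47 (0.918 to 222), and without normal 2 the tumours were at least 1.78-fold higher. In tumours 1, 2 and 3, 7.17%, 15.7% and 3.81% of detected protein-coding genes lay below it.

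Fabp1 (ENSMUSG00000054422.7, chr6:71199827-71205023, plus strand) had 1 count in normal 1 and none in the other 4 libraries. In the tumours 3 counts would be worth 0.195, 0.213 and 0.391 TPM, so a level above that was not seen and a lower one was not detectable at this depth. No fold is given.

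Across the 5 detected members the tumours did not keep 1 order. Tumour 1 was highest in TPM for Gucy2c, Cdx2, Vil1 and Lgals4 and tumour 2 for Cdh17. The lowest in TPM was tumour 3 for Gucy2c, Cdh17 and Lgals4 and tumour 2 for Cdx2 and Vil1. The order depended on the scale: in CPM tumour 3 was highest for Vil1 and tumour 1 lowest for Cdh17. The ratio of the Gucy2c level to the Lgals4 level was 16.1, 17.2 and 14.9, and to the Vil1 level 6.90, 6.83 and 3.62 in tumours 1, 2 and 3. Gucy2c thus exceeded every other detected member by at least 3.62 times in each tumour.

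Only 4 of the 9 members passed the filter on low counts, and they passed through their tumour counts alone. All 4 were called higher and 0 lower, where 39.2% of the 16810 genes tested were higher and 27.8% lower (with scaling by total counts only, 15681 higher and 398 lower). Every tumour TPM lay above both normal TPM values for 5 of the 9, a pattern held by 76.1% of all tested genes. Without normal 1 or without normal 2, 5 members were tested and 3 were called. The same contrast led to the choice of the genes, so these counts describe them and test nothing. The fitted values of these 4 members, likewise a description, stayed positive in all 13 alternative settings. They ran from 4.17 to 15.37 for Gucy2c, 1.30 to 10.98 for Cdx2, 1.97 to 8.51 for Vil1 and 0.94 to 5.34 for Lgals4.

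Genes of the brush border and of absorptive enterocytes were then read from a list of 28 that held none of the 9. Of 15 tested, 8 were higher, 3 were lower and 4 did not pass, with a median log2 difference of 2.72; with scaling by total counts only, 12 were higher and 2 lower. Slc2a5, the fructose transporter, was the most abundant at 37.9, 33.1 and 30.5 TPM against 0.65 and 0.47 TPM (edgeR adjusted p = 5.24e-05, log2 difference 4.68, SE 0.29). Ush1c and Myo7b, which tie microvillar tips together, were chosen after their values were seen. Ush1c had 884, 448 and 354 tumour counts and none in normal pancreas, a level at least 179-fold higher by counts (adjusted p = 0.000150, edgeR). Myo7b had 3503, 613 and 611 and none, a level at least 501-fold higher by counts (adjusted p = 0.00160, edgeR).

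The microvillar cadherin gene Cdhr2, of the same tip complex, went the other way on the TMM scale. It fell by 1.11 log2 units (edgeR adjusted p = 0.00551, SE 0.23), but came to 2.09 with scaling by total counts only and to 0.19 and 0.27 with limma on log2(TPM + 1) and log2(TPM + 0.1). Anpep, aminopeptidase N of brush border and acinar cells, fell by 5.86 (edgeR adjusted p = 1.21e-05, SE 0.17).

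Digestive enzymes and carriers of mature enterocytes fell on both sides. Those called higher in this list, named after their values were seen, include Enpep, Mep1a, Slc6a19, Mttp and Apob. Enpep, aminopeptidase A, stood at 0.33 and 0.25 TPM in normal pancreas and 8.81, 3.54 and 6.81 TPM in the tumours (edgeR adjusted p = 0.000760, log2 difference 3.27). Mep1a, a meprin protease subunit, stayed under 1 TPM in every library (edgeR adjusted p = 0.00308, log2 difference 3.47). Slc6a19, the neutral amino acid carrier, had 0 and 2 normal counts and 522, 175 and 296 tumour counts (edgeR adjusted p = 0.00117, log2 difference 7.36), with a value of 6.43 without normal 1 and 11.33 without normal 2. The groups did not overlap for these 3 genes.

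Mttp and Apob, which load and carry fat in lipoproteins of gut and liver, also rose. Mttp went from 0.19 and 0.2 TPM to 6.24, 2.90 and 2.28 TPM (edgeR adjusted p = 0.00188, log2 difference 2.72). Apob had 0 and 3 normal counts and 548, 62 and 547 tumour counts (edgeR adjusted p = 0.0130, log2 difference 7.25), and its call was lost without normal 1 (adjusted p = 0.0845, value 6.31) or normal 2 (adjusted p = 0.0659, value 11.77).

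Other genes of the list were at or near 0. Alpi, Mep1b, Fabp2, Rbp2, Slc15a1 and Treh had no count in any library. Sis, the sucrase-isomaltase gene, had 1 count in tumour 3, and Lct, the lactase gene, had 8, 8 and 2 tumour counts against 0 and 1. Krt20, a keratin of mature gut cells, had 3 and 2 normal counts and 1 tumour count. In all, 11 of the 28 had at most 3 counts over the tumours together. Summed over the list, the level was 53.7 to 90.2 TPM in the tumours and 29.0 and 31.3 TPM in normal pancreas, and the part of the cells that carry these genes in the levels of Vil1 or Gucy2c was not tested.

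**Figure D3:**
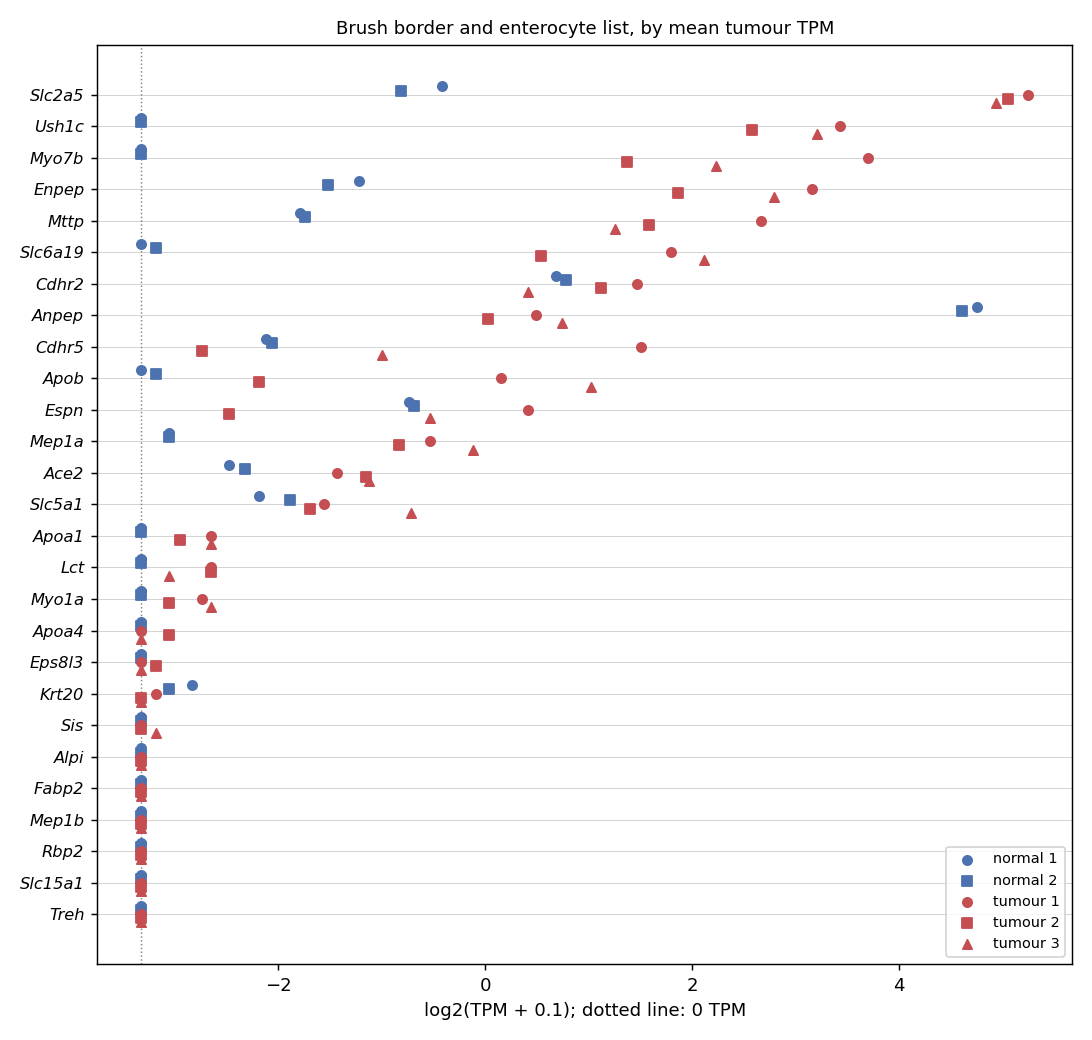
Levels as log2(TPM + 0.1) (horizontal axis) of 27 of the 28 brush border and enterocyte genes, ordered by mean tumour TPM, 1 symbol per library (blue, normal pancreas; red, tumour; the dotted line marks 0 TPM). Slc2a5, Ush1c and Myo7b lead, and 6 genes at the bottom have no count in any of the 5 libraries.

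The other lineages of the intestinal epithelium were read the same way. Of 11 goblet cell genes, 6 were tested, 1 was higher, 4 were lower and 1 did not pass, with a median of -4.57 (-5.66 without tumour 1 and -6.76 without tumour 2). With scaling by total counts only 2 were higher and 2 lower, with a median of -1.40. Muc2, the gut mucin, had 11, 15 and 3 tumour counts and none in normal pancreas, a level at least 3.07-fold higher by counts (adjusted p = 0.0136, edgeR), a call lost without normal 1 (adjusted p = 0.0590) or normal 2 (adjusted p = 0.0594). Zg16, which acinar cells also make, had 389784 and 368389 normal counts and 10, 3 and 295 tumour counts (edgeR adjusted p = 0.00906). Of 8 Paneth cell genes, only Mmp7 was tested and it did not pass (edgeR adjusted p = 0.0671, log2 difference 3.02, SE 1.24), though it did without tumour 2 (adjusted p = 0.0306, edgeR), without tumour 3 (adjusted p = 0.0497, edgeR) and with tumours 1 and 2 summed (adjusted p = 0.0208, edgeR). Without tumour 1, the highest for it, the Mmp7 difference was 1.42 (adjusted p = 0.0761, edgeR). Of the Paneth cell genes, 4 had no count in any library.

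Of 10 genes of intestinal stem cells, 7 were tested, 3 were higher and 2 lower (1 of the 2 positive with scaling by total counts only), with a median of 0.22 (0.91 without normal 2), and 1 was higher without normal 1 and none without normal 2. Lgr5, which defines crypt base stem cells, had 1, 5 and 19 counts in tumours 1, 2 and 3 and 3 and 0 in normal pancreas, too few to test. Of 8 tuft cell genes, 3 were tested and all 3 were higher (2 when normal 1, normal 2, tumour 2 or tumour 3 was left out), with a median of 6.01 (6.66 without normal 1, and 3.59 with genes at 0 in normal pancreas set to their bound). Dclk1, also a gene of neurons, led them with 7.41, 10.7 and 8.63 TPM against 0.04 and 0.04 TPM (edgeR adjusted p = 2.86e-05, log2 difference 6.01, SE 0.28). Pou2f3, the factor that defines tuft cells, had 1 count in tumour 1 and none elsewhere.

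Put together, 98 intestinal genes outside the 9 were listed and 57 tested, of which 22 were higher, 20 lower and 15 not passed. With scaling by total counts only the counts were 39 and 6. The TMM shares were 38.6% higher and 35.1% lower, beside 39.2% and 27.8% over all genes tested, and their median of 0.22 lies beside 0.38. Without normal 2 the higher count was 14 of 63 tested, with a median of 0.97, and with tumours 1 and 2 summed 26 were higher and 23 lower of 59. A further 18 of the 98 had no count in any library.

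**Figure D4:**
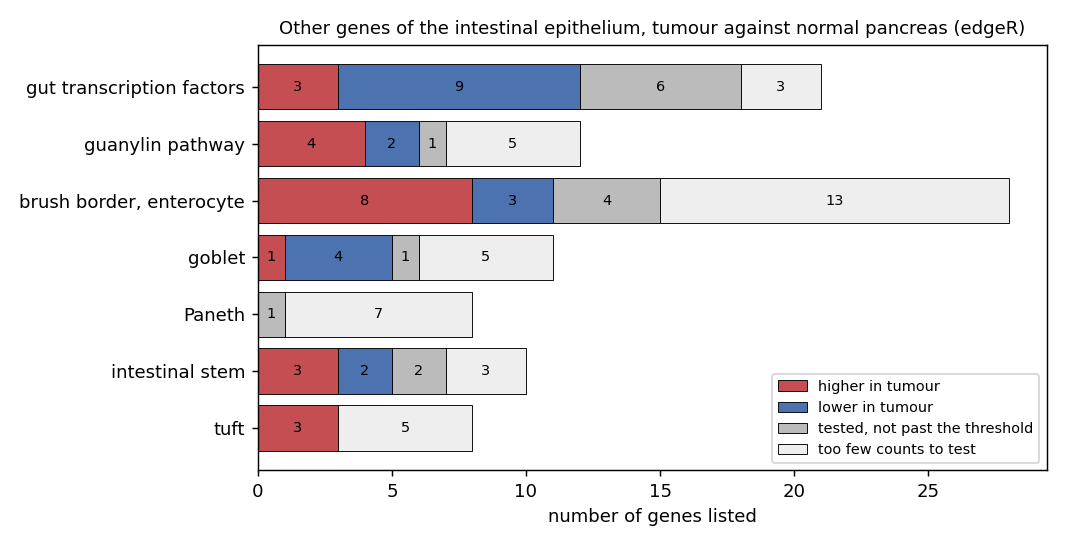
Number of genes (horizontal axis) in each of 7 lists of intestinal epithelium genes that were higher in tumour, lower, tested but not past the threshold, or had too few counts to test (edgeR, adjusted p under 0.05). The brush border list has 8 higher and 3 lower of 28, and the transcription factor list 3 higher and 9 lower of 21.

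Gut hormone genes are active in endocrine cells of the same epithelium, but their RNA alone does not place a cell there. The list also held genes that encode no hormone. Of 9 listed, 4 were tested and all 4 were higher (2 of 5 without normal 1 or normal 2), with a median of 9.52 (5.89 with genes at 0 in normal pancreas set to their bound). The median was 7.35 without tumour 1, 11.29 without tumour 2 and 10.97 without normal 2. Their summed level was 5388, 165 and 179 TPM in tumours 1, 2 and 3 against 0.12 and 0.70 TPM. Most of it came from Pyy, the peptide YY gene, at 5300.2, 133 and 93.3 TPM (edgeR adjusted p = 0.0122, log2 difference 10.74), a call lost without normal 1 (adjusted p = 0.0875) or normal 2 (adjusted p = 0.0703), with a value of 6.98 without tumour 1. Without Pyy the other 8 summed to 88.3, 31.9 and 85.5 TPM. Gip, the incretin gene of duodenal and jejunal endocrine cells, had 1137, 1 and 1 tumour counts and was not tested. Cck, the cholecystokinin gene of duodenal endocrine cells, had no normal count and 551, 585 and 880 tumour counts, a level at least 214-fold higher by counts (adjusted p = 0.00237, edgeR), and tumour 3 was its highest at 84.0 TPM and tumour 2 the next at 30.3 TPM. Tumour 1, the highest for Gucy2c, Cdx2 and Vil1 in TPM, was also the highest for the hormone sum, with and without Pyy, and for the neuroendocrine sum, but not for Cck, and their part in the members' levels was not tested.

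Genes of neighbouring organs were checked. Of 16 gastric gene symbols listed, 15 had a row and 3 were tested, with 1 higher, 1 lower and a median of -0.11 (-1.40 to 0.90 with 1 library left out). The higher one was Anxa10, at 0 in normal pancreas and 8.31, 10.9 and 9.0 TPM in the tumours, a level at least 129-fold higher by counts (adjusted p = 8.44e-05, edgeR), while the gastric genes Gkn2, Tff1, Muc5ac, Atp4b and Cldn18 had no count anywhere. Of 10 hepatocyte genes, 7 were tested, 4 were higher (2 without normal 1 or normal 2) and 1 lower (positive with scaling by total counts only), with a median of 7.81 (3.77 with bounds). That median was 2.04 without tumour 1, 1.40 without tumour 2, 4.68 to 5.16 without 1 of the other libraries and 1.75 with tumours 1 and 2 summed, and their summed level was 28.0 to 69.7 TPM in the tumours against 7.96 and 10.3 TPM. Serpina1a, the most abundant, stood at 43.5, 23.7 and 18.6 TPM against 0 and 0.05 TPM (edgeR adjusted p = 9.62e-05, log2 difference 8.98). Tat was at least 28.7-fold higher by counts (adjusted p = 0.00414, edgeR), and Ttr was the lower one (edgeR adjusted p = 0.00311, log2 difference -1.67). Alb, the albumin gene that defines hepatocytes, had 659, 4 and 4 tumour counts and 285 and 20 normal counts and did not pass (edgeR adjusted p = 0.663, log2 difference -0.89). Its value turned to 2.04 without normal 1 (edgeR adjusted p = 0.563) and to 2.30 with total counts only (edgeR adjusted p = 0.276), while without tumour 1 it was lower (edgeR adjusted p = 0.0107, log2 difference -5.97). Fabp1, shared by liver and gut, was at 0 in the same tumours.

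Of 12 general epithelial and duct genes, all were tested, 3 were higher (1 without normal 1 or normal 2) and 5 lower, with a median of -1.42, and 3 of the 5 had positive values with scaling by total counts only. Epcam, the pan-epithelial adhesion gene, rose by 1.74 (edgeR adjusted p = 0.00912, SE 0.41), a call lost without normal 1 (adjusted p = 0.0616) or normal 2 (adjusted p = 0.0699). Keratins of the list went both ways. Krt19, a duct keratin, fell by 5.93 (edgeR adjusted p = 5.98e-05, SE 0.38), while Krt7 rose by 3.12 (edgeR adjusted p = 4.29e-05, SE 0.18). Tspan8 rose by 7.88 (edgeR adjusted p = 0.00637, SE 1.68), with 53.5, 3.60 and 48.9 TPM in tumours 1, 2 and 3. With only 1 gene of the list higher without normal 1 or normal 2, the Krt7 and Tspan8 calls were not both kept there. Cdh1, E-cadherin, did not pass (edgeR adjusted p = 0.136, log2 difference -0.77, SE 0.41), came to 2.40 with total counts only and to 0.52 and 0.54 with limma on log2(TPM + 1) and log2(TPM + 0.1). It was lower without tumour 1 (-1.20, adjusted p = 0.0142, edgeR) and with tumours 1 and 2 summed (-0.75, adjusted p = 0.00261, edgeR). Krt8, a simple epithelial keratin, fell by 1.63 (edgeR adjusted p = 0.000299, SE 0.16) but came to 1.56 with total counts only.

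Close relatives of 4 members were read by family. Of 7 villin and gelsolin genes other than Vil1, 6 were tested, 2 were higher (none without normal 1 or normal 2) and 3 lower, with a median of -0.08 (0.52 without normal 1), and all 3 that were lower had positive values with scaling by total counts only. Vill, the villin-like gene, fell by 2.96 in the TMM fit (edgeR adjusted p = 0.000424, SE 0.33) and came to 0.22 with total counts only. Of 9 fatty acid binding genes other than Fabp1, 3 were tested, 1 was higher (none without normal 1 or normal 2) and none lower, with a median of 0.13, and 5 had no count in any library. Fabp5, the epidermal form, was the most abundant at 17.4, 33.0 and 22.4 TPM against 8.73 and 8.05 TPM and did not pass on the TMM scale (edgeR adjusted p = 0.700, log2 difference 0.13, SE 0.28), with 1.38 on log2(TPM + 1) (limma adjusted p = 0.00741).

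Of 8 galectin genes other than Lgals4, 7 had a row and 6 were tested, with none higher, 4 lower and a median of -2.59; with total counts only, 2 of the 4 had positive values. Lgals9 fell by 3.38 (edgeR adjusted p = 4.63e-05, SE 0.20), and with total counts only its value of -0.19 did not pass. Lgals3 did not pass (edgeR adjusted p = 0.661, log2 difference 0.26, SE 0.50), with 1.21 on log2(TPM + 1) (limma adjusted p = 0.0235). Of 4 cadherin genes related to Cdh17, Cdhr1, a photoreceptor cadherin, was the 1 tested, and it rose from 0.02 and 0 TPM to 2.74, 2.39 and 1.85 TPM (edgeR adjusted p = 0.000218, log2 difference 6.25, SE 0.59), with 11.18 without normal 1 and 5.28 without normal 2. Cdh16, the nearest relative, had 1 count in tumour 1 and none elsewhere.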

How the data were processed

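RNA sequencing of 3 tumour and 2 normal pancreas libraries was used. The submitters' processing notes name Trim Galore 0.60, STAR 2.7, RSEM 1.31, mm10 and GRCm38. The sources used here give neither settings nor annotation. The authors deposited RSEM's estimated counts per gene, also called expected counts, TPM values and, in the per-library files, the effective length of each gene in bases, a value of another kind. A deposited FPKM table was not used.

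The counts were rounded, and edgeR 4.0.16 under R 4.3.3 gave the tests (glmQLFit, glmQLFTest, TMM, filterByExpr, Benjamini-Hochberg adjustment over 16810 genes, threshold 0.05). Differences are tumour minus normal. The SE is the log2 difference divided by the square root of F. A gene at 0 in a group has a bound against 3 counts over that group; otherwise ratios of pooled TMM-scaled counts carry a 95% exact binomial interval. The fit was also run on simulated counts in which few genes changed, as many up as down. That setting cannot check the library scaling on which the calls here depend. The alternatives were other scalings, no filter, protein-coding genes only, DESeq2 1.42.0, limma 3.58.1 on log2(TPM + 1) or log2(TPM + 0.1), tumours 1 and 2 summed, and leaving out each library. Coordinates come from GENCODE M21 (GRCm38), whose identifiers match 55094 of 55573. The 92 spike-in rows, all at 0, were left out.

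The 9 genes and the 19 comparison lists were chosen with earlier results of these data known. Named from each list were the genes called in its rarer direction (up to 3), the 3 with the smallest p and the most abundant in tumour, beside a fixed set; not all are printed. Outside this rule, and chosen after their values were seen, are Prkg1, Prkg2, Pde5a, Slc9a3, Slc26a3, Pdzk1, Cnga3, Ush1c, Myo7b, Enpep, Mep1a, Slc6a19, Mttp, Apob, Gip, Usp37, Dbh, Pou2f3 and the genes named as having no or few counts. A few listed genes are not reported here.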

Additional observations from a re-analysis of the deposited data

How the results depend on the processing

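The counts of calls moved with the scaling. Over all genes the median log2 difference came to 0.38 (TMM), 0.51 (upper quartile) and 3.55 (total counts only), and the share of higher genes among those called was 58.5%, 62.5% and 97.5%, against 89.2% and 90.9% for limma at a pseudocount of 1 and 0.1 TPM. Scaling by total counts gave 15681 higher and 398 lower genes, against 6587 and 4669, and 39 of the other intestinal genes were higher and 6 lower, against 22 and 20. Limma gave 11475 higher and 1143 lower genes at a pseudocount of 0.1, and 1187 lower genes at 1. Leaving out 1 library gave 4631 to 6581 higher and 3443 to 4823 lower genes, and 14 to 23 higher and 20 to 21 lower other intestinal genes. Among results called in either fit, the sign changed with total counts only for Cdh1 (2.40), Krt8 (1.56), Npr1 (2.22) and Vill (0.22). It changed likewise for Slc9a3r1 (0.28), Cdhr2 (2.09) and Ttr (1.52). With limma at a pseudocount of 1 and 0.1 it changed for Cdhr2 (0.19 and 0.27). Without a call in either fit it changed with total counts only for Gata6 (1.43) and Alb (2.30), with limma for Cdh1 (0.52 and 0.54) and Npr1 (0.28 and 0.76), and with 1 library left out for Alb (2.04), Fabp5 (-0.09), Hnf4a (-0.05 and -0.04) and Lgals3 (-0.33). The cause was not tested. Tumours 1 and 2 summed as 1 sample gave calls for Gata6, Cdh1, Cftr and Mmp7. None of the 4 tested members changed sign in any setting. They were chosen on this contrast and passed the filter through tumour counts alone, so this describes them and tests nothing. No paired analysis was possible because no label pairs a tumour with a normal library. With 3 against 2 libraries, and tumour 3 at 6611967 counts, levels under the 3-count floors were not detectable.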
